A study of Mus musculus with 6 samples.

Results

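The angiopoietin and Tie receptor pathway was examined in RNA of mouse dural LECs (lymphatic endothelial cells, which form the wall of lymphatic vessels). The 7 members were listed by name for their roles in the pathway, with earlier results of these data known: the ligands *Angpt1*, *Angpt2* and *Angpt4*, the receptors *Tek* (which encodes Tie2) and *Tie1*, the phosphatase *Ptprb* and the matrix protein *Svep1*. They are 7 of the 55401 genes in the deposited tables, and all 7 were detected in every library. Male wild-type C57BL/6J mice received a single injection of adeno-associated virus serotype AAV9 into the cisterna magna at 4 weeks of age. The virus encoded full-length mouse VEGF-C, the main lymphatic growth factor (AAV-VEGF-C), or a control protein made of VEGFR3 domains that do not bind VEGF-C, fused to immunoglobulin (AAV-CTRL). Viable CD31+ Podoplanin+ LYVE-1+ CD45- cells were sorted from the pooled dura of 10 to 12 animals per library. The experiment was run 3 times, which gave 3 libraries per group, numbered 1 to 3. The vector was delivered to the fluid around the brain, so which cells made the encoded protein is not given by the group labels.

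Angiopoietins are secreted proteins that bind Tie2, a receptor tyrosine kinase of endothelial cells. ANGPT1, made largely by cells around vessels, activates Tie2 and keeps endothelium quiet, and ANGPT2, made by endothelial cells themselves, weakens or mimics that signal depending on context. ANGPT4, the least studied of the ligands, also activates Tie2. TIE1 binds no angiopoietin with known high affinity and modulates Tie2 within a shared complex. The phosphatase VE-PTP, encoded by *Ptprb*, removes phosphate from Tie2 and so lowers its activity. SVEP1 (polydom) is an extracellular protein that binds TIE1 and is needed for lymphatic vessel remodelling. Loss of Tie1, of Svep1 or of Angpt2 disturbs lymphatic development, and *Angpt2* is a marker of many lymphatic vessels.

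All 7 genes are protein-coding. On GRCm38 (GENCODE M21), *Angpt1* lies on chromosome 15 from 42424723 to 42676977, *Angpt2* on chromosome 8 from 18690263 to 18741562 and *Angpt4* on chromosome 2 from 151911210 to 151945337. *Tek* and *Tie1* share chromosome 4, at 94739289 to 94874976 and at 118471191 to 118490061, and *Svep1* lies on the same chromosome at 58042442 to 58206859. *Ptprb* lies on chromosome 10 from 116275523 to 116389535. The exons of these genes differ in total length from 2335 bases in *Angpt4* to 16117 bases in *Svep1*, so levels are compared between genes only in TPM, a unit that corrects for transcript length and for the library total. *Angpt2* lies within the span of *Mcph1* on the opposite strand, and the use of strand in counting is not given in the sources used here. Reads of *Angpt2* and *Mcph1* from overlapping exons therefore could not be told apart, although *Mcph1* had only 260 counts over all libraries.

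The table of RefSeq promoters for GRCm38.p6 holds 4 of the 7 members, *Angpt4*, *Tek*, *Tie1* and *Svep1*. The 250 bases upstream of the start of *Tek* and of *Angpt4* are shown because these are the receptor and the ligand with the lowest fitted values. Their stretches also hold no annotated exon of the same gene, and exons of other genes were not looked for. Capitals mark GGAA and its reverse complement TTCC, the core of the sites bound by ETS factors, a family active in endothelial genes, searched on both strands.

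*Tek*, chr4:94739039-94739288, plus strand: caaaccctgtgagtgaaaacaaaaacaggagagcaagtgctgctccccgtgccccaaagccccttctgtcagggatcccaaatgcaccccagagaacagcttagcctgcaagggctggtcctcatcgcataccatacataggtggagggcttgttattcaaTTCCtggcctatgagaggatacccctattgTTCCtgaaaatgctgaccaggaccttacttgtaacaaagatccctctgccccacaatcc
*Angpt4*, chr2:151910957-151911206, plus strand: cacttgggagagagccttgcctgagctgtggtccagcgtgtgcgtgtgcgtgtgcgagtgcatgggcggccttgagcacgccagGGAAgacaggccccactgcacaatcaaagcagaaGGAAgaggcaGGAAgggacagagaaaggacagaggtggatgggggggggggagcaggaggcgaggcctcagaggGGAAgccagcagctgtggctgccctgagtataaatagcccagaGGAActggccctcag

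The stretch of *Tek* holds 2 matches, both as TTCC, and 76.8% of 32851 promoters of the same length hold at least as many. The stretch of *Angpt4* holds 5 matches, all as GGAA, a number reached by 18.03% of promoters. A match is a description of the letters in this window and not a measured binding site.

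The libraries differed in depth in a way that follows the groups. Total counts ranged from 6530190 to 12399429 in AAV-CTRL and from 564430 to 3261814 in AAV-VEGF-C, so depth and treatment cannot be told apart. All 9 lymphatic endothelial markers (*Prox1*, *Flt4*, *Lyve1*, *Pdpn*, *Pecam1*, *Ccl21a*, *Mmrn1*, *Reln* and *Nrp2*) were detected in every library. Their summed level was 499 to 607 TPM in AAV-CTRL and 168 to 383 TPM in AAV-VEGF-C. Of the 9, *Pecam1* encodes CD31, which blood endothelial cells also carry. The study also detected *Nrp2* in neuronal and meningeal stromal cells. A measure of background came from 1935 genes with no known use in endothelium, such as olfactory receptors and defensins. Their mean level was 0.0245 to 0.0357 TPM in AAV-CTRL and 0.337 to 0.386 TPM in AAV-VEGF-C, 11.6-fold higher in the mean. TPM of most genes shifted down together in AAV-VEGF-C. Among tested genes averaging 5 TPM or more, the median ratio of the group means was 0.388, and 61.4% had their 3 AAV-VEGF-C values below their 3 AAV-CTRL values. The fitted fold changes below therefore rest on counts scaled by TMM factors, which set the median change of all genes tested near 0 (-0.0037 on the log2 scale).

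The first comparison asked whether delivery of VEGF-C changed the RNA level of the pathway in these LECs. None of the 7 members passed the test in either direction (edgeR quasi-likelihood test, Benjamini-Hochberg adjusted p under 0.05). An unadjusted p under 0.05 was found for 0 of 7, against 4905 of all 17459 genes tested. By DESeq2, limma and voom none passed either. With an unadjusted p under 0.05 there were 2 lower members by DESeq2, *Tek* and *Ptprb*, 5 by limma on log2(TPM + 1) and 3 by limma on log2(TPM + 0.1). Over all genes, 1568 of 44563 were lower at that threshold by DESeq2. The limma fits had 4850 and 4322 lower of 17459. With no filter on low counts 2 members passed as lower in edgeR, *Tek* and *Ptprb*, as did 1175 of all 44563 genes. In the filtered edgeR fit, 10.5% of all 17459 genes tested passed higher and 0.659% passed lower in AAV-VEGF-C. All 7 fitted values were negative, with a median of -0.51 (log2), but under a scaling on the 2000 most abundant genes only 5 were, since *Angpt2* and *Tie1* were then above 0. The median of tested genes averaging 5 TPM or more was -0.41, close to that of the members, and 5495 of those 7234 genes were negative. Over all 17459 genes tested, 8768 were negative, with a median of -0.0037. Of the members, *Angpt1*, *Angpt4* and *Svep1* averaged under 5 TPM. The lowest fitted values belonged to *Tek* (-1.59), *Ptprb* (-1.51) and *Angpt4* (-1.03), and the intervals of all 7 included 0. The intervals were wide, and that of *Tek* reached from -3.42 to 0.24 (95%).

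**Figure D1:**
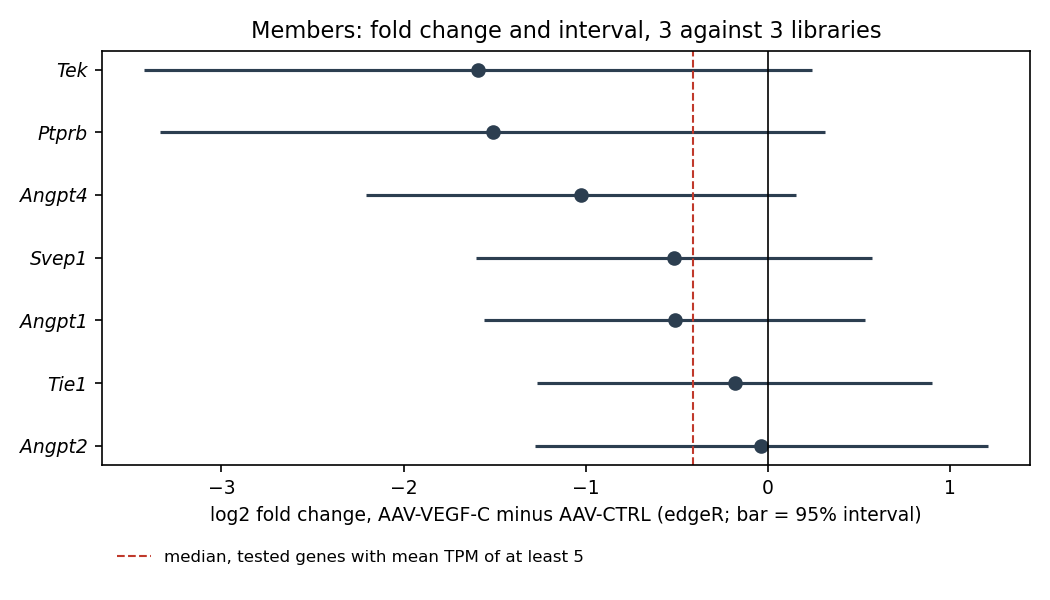
Fitted log2 fold change of each member, AAV-VEGF-C minus AAV-CTRL, on the horizontal axis (edgeR, 3 against 3 libraries), with the member on the vertical axis. Points are estimates, bars are 95% intervals and the dashed line is the median of tested genes averaging 5 TPM or more (-0.41). Every bar crosses 0, and those of *Tek* and *Ptprb* are the widest.

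Among the ligands, *Angpt2* was the most abundant in every library. Its level was 27.4, 18.9 and 23.3 TPM in AAV-CTRL 1, 2 and 3, and 12.1, 7.24 and 9.61 TPM in AAV-VEGF-C 1, 2 and 3. In TPM the groups did not overlap, with means of 23.2 ± 4.27 and 9.66 ± 2.45 (SD, n = 3; exact permutation test, two-sided, p = 0.1, which is the lowest value that this design can give). The ratio of these means was 0.416, beside the median of 0.388 for genes averaging 5 TPM or more. In counts scaled to the TMM-adjusted library total (CPM), *Angpt2* had 161, 99.7 and 84.8 in AAV-CTRL, against 217, 63.1 and 64.7 in AAV-VEGF-C. These ranges overlapped, and the fitted log2 fold change was -0.04 ± 0.54 (SE; edgeR adjusted p = 0.979), with a 95% interval from -1.28 to 1.21. Of the 7 members it had the fitted value nearest to 0, and its sign changed with the scaling.

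*Angpt4* was the second ligand in TPM in 4 of the 6 libraries. It had 8.29, 2.82 and 6.96 TPM in AAV-CTRL and 0.782, 1.39 and 2.30 TPM in AAV-VEGF-C. Every AAV-VEGF-C library lay below every AAV-CTRL library, with means of 6.02 ± 2.85 and 1.49 ± 0.763 (SD, n = 3; exact permutation p = 0.1). Together with *Angpt2* and *Tie1* it made 3 of 7 members lower in TPM without overlap, against 36.4% of all tested genes. Scaled to CPM, it was lower in all 3 experiments, by log2 differences of -1.70, -0.26 and -0.55, but the groups overlapped. The fitted log2 fold change was -1.03 ± 0.51 (SE; edgeR adjusted p = 0.232). The counts behind the AAV-VEGF-C values were small, 5 in AAV-VEGF-C 1 (95% exact Poisson interval 1.62 to 11.7) and 13 in AAV-VEGF-C 2 (6.92 to 22.2), and such intervals cover counting error only. In AAV-VEGF-C 1, 10.3% of the background genes reached the TPM of *Angpt4* or more, so its level there is not clearly above background.

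*Angpt1*, the Tie2 agonist that is made mostly outside endothelium, was low in all libraries. It had 2.17, 1.70 and 3.69 TPM in AAV-CTRL and 1.49, 1.93 and 0.904 TPM in AAV-VEGF-C. The groups overlapped (exact permutation p = 0.2), since AAV-VEGF-C 2 exceeded AAV-CTRL 2. The fitted log2 fold change was -0.51 ± 0.45 (SE; edgeR adjusted p = 0.501). Only 4, 15 and 17 counts supported the AAV-VEGF-C values, and from 2.07% to 6.51% of background genes reached them. The 95% interval of its fold change reached from -1.56 to 0.53. Annotation places an antisense gene, Gm17473, over part of it.

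**Figure D2:**
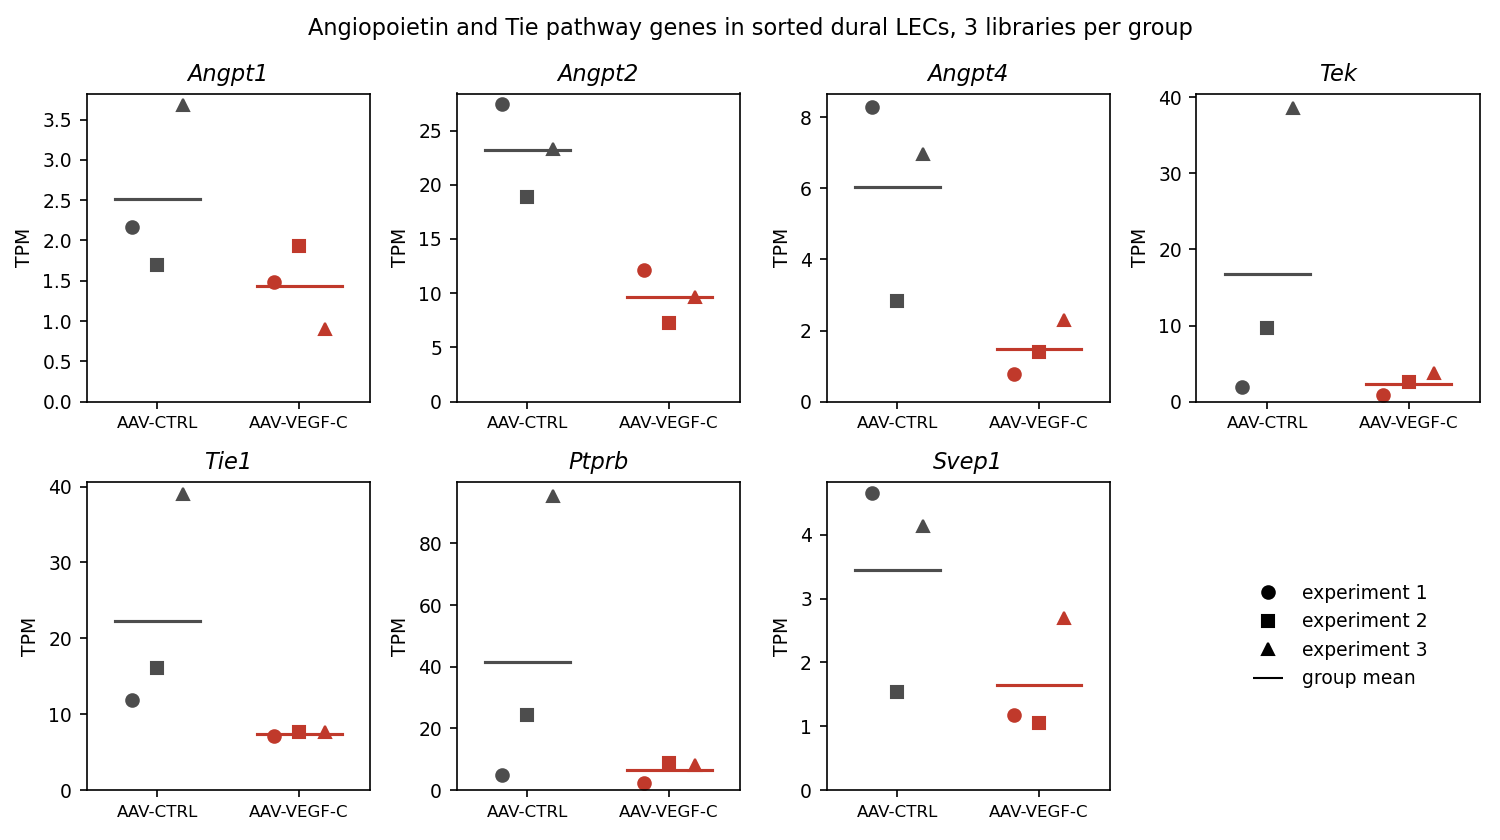
Level of each member in TPM (vertical axis, linear from 0, with its own scale per gene) in the 3 AAV-CTRL and 3 AAV-VEGF-C libraries. Marker shape gives the experiment and the horizontal line the group mean. *Angpt2*, *Angpt4* and *Tie1* do not overlap between groups in TPM, and AAV-CTRL 3 stands far above all other libraries for *Tek* and *Ptprb*.

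Set against each other within a library, the ligands kept their leading member. *Angpt2* made up 68.6% to 84.2% of the summed angiopoietin TPM, *Angpt4* 5.43% to 21.9% and *Angpt1* 5.73% to 18.3%. A ratio within a library does not depend on scaling between libraries. The ratio of *Angpt2* to *Angpt1*, the endothelial ligand to the perivascular one, was 12.6, 11.1 and 6.33 in AAV-CTRL, against 8.14, 3.75 and 10.6 in AAV-VEGF-C. The groups overlapped, with a difference of -0.48 in the mean log2 ratio (exact permutation p = 0.5), and the ratio was lower in experiments 1 and 2 and higher in experiment 3. With counts in place of TPM the sign turned to 0.28, so no direction can be given. The ratio of *Angpt2* to *Angpt4* was 3.31, 6.69 and 3.35 in AAV-CTRL, against 15.5, 5.22 and 4.18 in AAV-VEGF-C, also overlapping (log2 difference 0.73, exact permutation p = 0.5).

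The level of *Tek* differed widely within a group. *Tek*, the receptor that binds the angiopoietins, had 1.93, 9.71 and 38.6 TPM in AAV-CTRL and 0.873, 2.55 and 3.70 TPM in AAV-VEGF-C. AAV-CTRL 3 stood far above the other libraries, and AAV-CTRL 1 lay below AAV-VEGF-C 2 and 3. The value in AAV-VEGF-C 1 rests on 8 counts (95% exact Poisson interval 3.45 to 15.8), and 9.10% of background genes reached it. The group means were 16.7 ± 19.3 and 2.37 ± 1.42 TPM (SD, n = 3; exact permutation p = 0.3). In scaled CPM *Tek* was higher in AAV-VEGF-C in experiment 1 (log2 difference 0.38) and lower in experiments 2 (-0.92) and 3 (-2.47). The fitted log2 fold change was -1.59 ± 0.79 (SE; edgeR adjusted p = 0.233). It rests largely on 1 library, because without AAV-CTRL 3 the value was -0.46, whereas without AAV-CTRL 1 it was -2.13 and passed (adjusted p = 0.0453). With the experiment as a block the value was -1.25 (unadjusted p = 0.033, adjusted p = 0.123).

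*Tie1*, the partner receptor, had 11.9, 16.0 and 39.0 TPM in AAV-CTRL and 7.09, 7.66 and 7.64 TPM in AAV-VEGF-C. In TPM all 3 AAV-VEGF-C libraries lay below the 3 AAV-CTRL libraries, and the AAV-VEGF-C values were nearly equal (7.46 ± 0.326 against 22.3 ± 14.6, SD, n = 3; exact permutation p = 0.1). Scaled CPM did not keep that order. The values were 91.0, 114 and 177 in AAV-CTRL, against 194, 84.6 and 65.0 in AAV-VEGF-C, so AAV-VEGF-C 1 was the highest of all. The fitted log2 fold change was -0.18 ± 0.47 (SE; edgeR adjusted p = 0.846), and its sign changed with the scaling.

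*Ptprb*, which encodes the phosphatase that acts on Tie2, followed *Tek* across the AAV-CTRL libraries but not between AAV-VEGF-C 2 and 3. It had 4.95, 24.3 and 95.3 TPM in AAV-CTRL and 2.36, 8.90 and 8.05 TPM in AAV-VEGF-C. The ratio of *Ptprb* to *Tek* was 2.57, 2.50 and 2.47 in AAV-CTRL, although *Ptprb* itself spanned a 19.3-fold range there. It was 2.70, 3.50 and 2.18 in AAV-VEGF-C, a log2 difference between groups of 0.13 (exact permutation p = 0.7). The fitted log2 fold change of *Ptprb* was -1.51 ± 0.79 (SE; edgeR adjusted p = 0.254), and it was -0.48 without AAV-CTRL 3. Its pairs differed by 0.51, -0.65 and -2.63 in experiments 1, 2 and 3, the same order as for *Tek*.

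*Svep1*, the matrix ligand of TIE1, had 4.64, 1.54 and 4.13 TPM in AAV-CTRL and 1.18, 1.05 and 2.69 TPM in AAV-VEGF-C. The groups overlapped through AAV-CTRL 2 (exact permutation p = 0.2), and the fitted log2 fold change was -0.51 ± 0.47 (SE; edgeR adjusted p = 0.517). Within experiments the scaled difference was -1.01 in experiment 1 and -0.08 and -0.06 in experiments 2 and 3. Its order across the AAV-CTRL libraries was that of *Angpt2* and *Angpt4*, with library 2 the lowest, and not that of the receptors. Up to 7.18% of background genes reached its TPM in AAV-VEGF-C 1 and 2.

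The ratio of *Tie1* to *Tek* compares the partner receptor with the angiopoietin receptor. It was 6.16, 1.65 and 1.01 in AAV-CTRL, against 8.12, 3.01 and 2.06 in AAV-VEGF-C. Within each of the 3 experiments the value was higher in AAV-VEGF-C, by 0.40, 0.87 and 1.03 on the log2 scale. The difference in experiment 1 lies within counting error, since *Tek* had 8 counts in AAV-VEGF-C 1. The ratio also differed strongly between experiments, so the groups overlapped (exact permutation p = 0.5, unpaired). Taken within experiments, the mean difference was 0.76 ± 0.19 (SE, n = 3; 1.70-fold), larger than its own spread, with p = 0.25 in a two-sided exact sign-flip test, the smallest that 3 pairs can give. Leaving out 1 library at a time gave unpaired differences of the group means from 0.20 to 1.52.

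**Figure D3:**
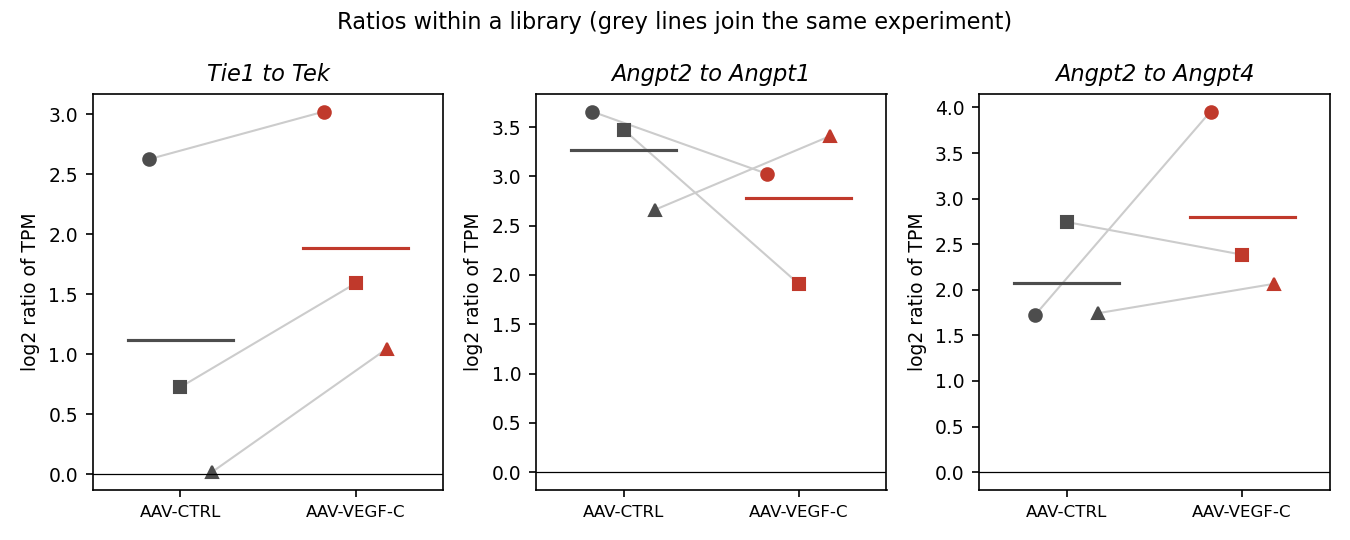
Log2 ratio of TPM within each library (vertical axis) for 3 pairs of members in AAV-CTRL and AAV-VEGF-C, with grey lines joining libraries of the same experiment and horizontal bars at the group means. Marker shape gives the experiment (circle 1, square 2, triangle 3). All 3 lines slope upward for *Tie1* to *Tek*, by 0.40, 0.87 and 1.03, while the other ratios have lines in both directions.

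Markers of blood endothelium, another endothelial population of the dura, were set beside the receptors, since Tie2 and VE-PTP are abundant on blood vessels. The sort for Podoplanin+ LYVE-1+ cells is meant to leave out blood endothelial cells, which largely lack both proteins, and fibroblasts and mural cells, which lack CD31. The 7 markers (*Flt1*, *Emcn*, *Plvap*, *Vwf*, *Sele*, *Cldn5* and *Ackr1*) summed to 86.1, 227 and 668 TPM in AAV-CTRL and to 43.8, 96.6 and 76.7 TPM in AAV-VEGF-C. *Sele* and *Ackr1* were at 0 in AAV-VEGF-C 1. Of the 6 markers tested 0 passed, and all 6 fitted values were negative, with a median of -1.18. The sum was thus lowest in experiment 1 within each group and highest in AAV-CTRL 3, as for *Tek*. In bulk samples fewer cells of a type and less RNA per cell cannot be told apart.

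Each member was then expressed per 100 TPM of a marker sum, a scale chosen after the data were seen. Per 100 TPM of blood endothelial markers, *Tek* was 2.24, 4.29 and 5.77 in AAV-CTRL, against 1.995, 2.64 and 4.82 in AAV-VEGF-C. The 44.2-fold range of *Tek* over the 6 libraries was 2.89-fold on this scale, and the 40.4-fold range of *Ptprb* was 2.65-fold. *Tie1* spanned 2.78-fold. Of 6886 genes averaging 5 TPM or more with no library at 0, 3.24%, 1.80% and 2.47% had as narrow a range as *Tek*, *Ptprb* and *Tie1*. These shares are not particular to blood endothelial markers. Against megakaryocyte and platelet markers they were 3.34% for *Tek* and 3.02% for *Ptprb*, with ranges of 8.01-fold and 7.63-fold, and against leukocyte markers 5.58% and 3.73%, with ranges of 23.3-fold and 17.1-fold. Between groups, log2 differences within experiments were averaged on the blood endothelial scale. *Tek* had -0.38 ± 0.16 (SE, n = 3, lower in 3 of 3), *Ptprb* -0.25 ± 0.10 (lower in 3 of 3) and *Tie1* 0.39 ± 0.19 (higher in 3 of 3). Each had an exact sign-flip p of 0.25, and the groups overlapped (unpaired exact permutation p = 0.6, 0.5 and 0.5). *Tek* and *Ptprb* were also lower in 3 of 3 on the lymphatic, leukocyte, and megakaryocyte and platelet scales. *Angpt1* was higher in 3 of 3 on the blood endothelial scale, by 0.98 (exact sign-flip p = 0.25), with few counts behind it.

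*Angpt2* had its narrowest range against the lymphatic markers. Per 100 TPM of the 9 lymphatic markers it was 4.52, 3.79 and 4.06 in AAV-CTRL, against 3.17, 3.32 and 5.74 in AAV-VEGF-C. This 1.81-fold range is as narrow in 0.30% of the 6886 genes, whereas on the blood endothelial scale *Angpt2* spanned 9.12-fold. The difference between groups was -0.07 in the mean log2 ratio (exact permutation p = 0.9). *Angpt1* also had its narrowest range on the lymphatic scale, 2.60-fold (2.61% of genes as narrow), against 9.90-fold on mural cell markers, although its AAV-VEGF-C values rest on few counts. *Tie1* spanned 3.67-fold on the lymphatic scale (9.54% of genes as narrow), against 2.78-fold (2.47%) on the blood endothelial one. Between groups, its mean log2 difference on the lymphatic scale was -0.18 (exact permutation p = 0.9), with higher values in 1 of 3 experiments. *Tek* and *Ptprb* spanned 29.5-fold and 27.0-fold on the lymphatic scale. The 7 fibroblast markers (*Dcn*, *Lum*, *Col1a1* and others) summed to 2223, 1066 and 1892 TPM in AAV-CTRL and to 264, 421 and 874 TPM in AAV-VEGF-C, and 2 of the 7, *Dcn* and *Ogn*, passed as lower. *Angpt4* had its narrowest range on the fibroblast scale, 1.42-fold (0.36% of genes as narrow), although some of its values rest on few counts. For *Angpt2*, *Angpt1* and *Angpt4* the narrowest of all marker scales was picked, so their shares of genes as narrow are low by selection. On the fibroblast scale *Svep1* was higher in 3 of 3 experiments, without overlap between groups (exact permutation p = 0.1). *Angpt4* was lower without overlap on markers of neural and glial cells (exact permutation p = 0.1), whose sum was only 4.28 to 25.1 TPM. These 2 were the only cases without overlap among the 7 members on 7 marker scales. An exact permutation p of 0.1 is the lowest that this design can give. The share of all genes without overlap on these scales was not computed. The part of these other cell types in the levels of the members was not tested, and the libraries share depth and experiment.

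**Figure D4:**
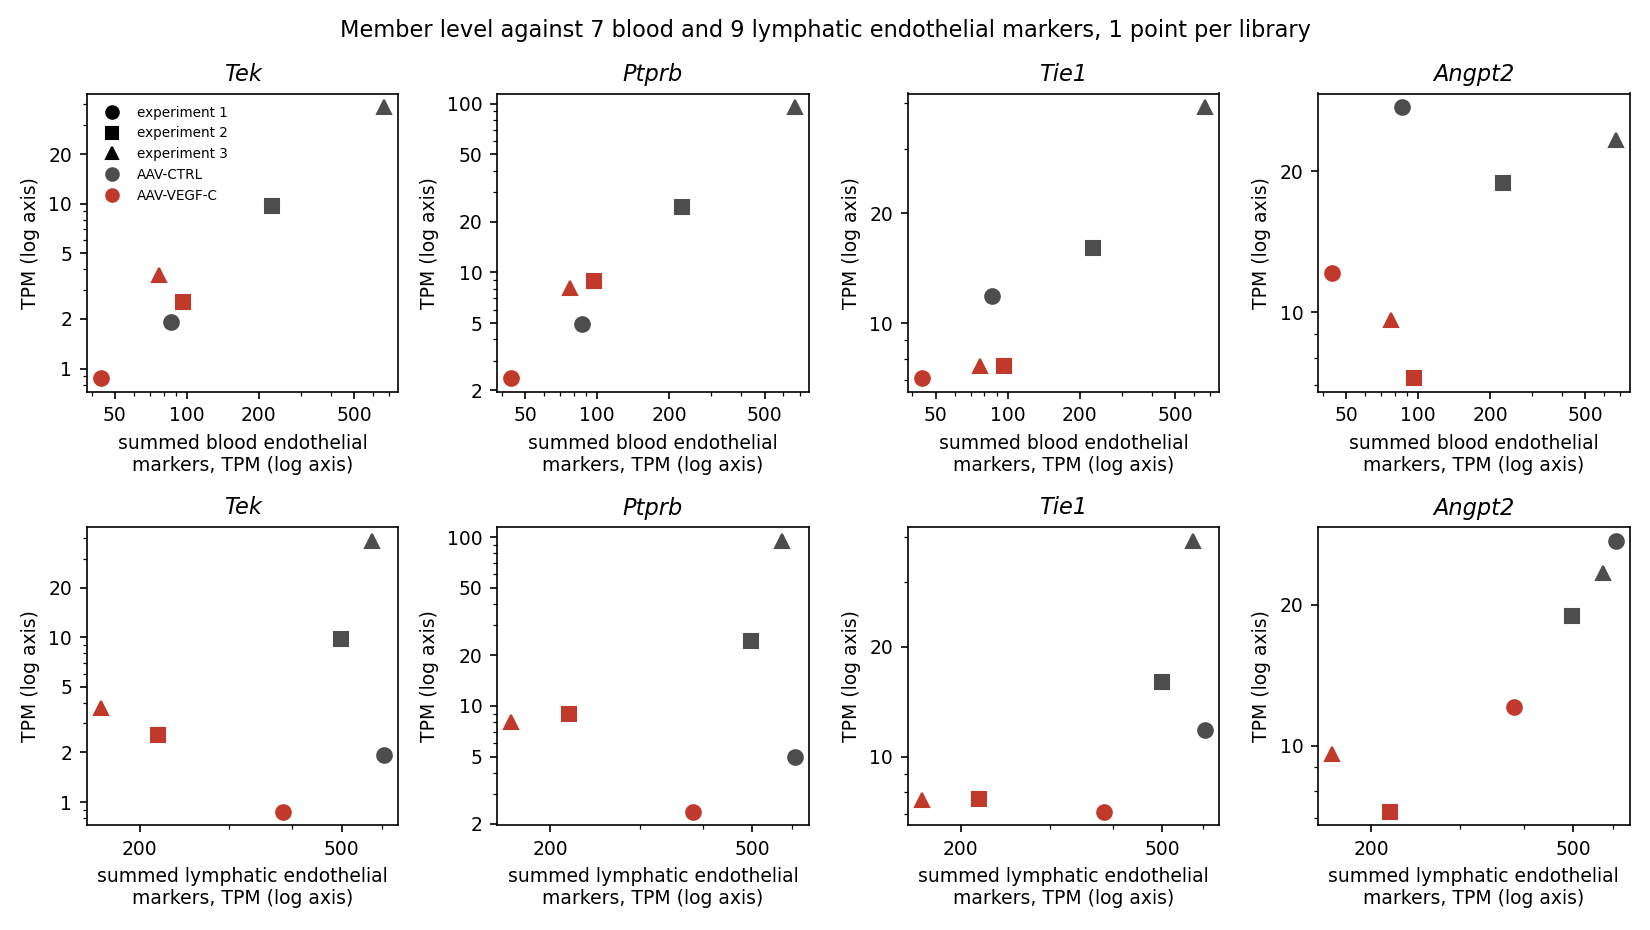
TPM of *Tek*, *Ptprb*, *Tie1* and *Angpt2* (vertical axes, log scale) against the summed TPM of 7 blood endothelial markers (upper row) and 9 lymphatic endothelial markers (lower row), 1 point per library, with colour for the group and shape for the experiment. *Tek* and *Ptprb* are highest in the 2 libraries with the highest blood endothelial sums, AAV-CTRL 2 and 3, and *Angpt2* is highest in the 3 AAV-CTRL libraries, which have the highest lymphatic sums.

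A further scale used *Cdh5*, VE-cadherin, which all endothelial cells express, and was also chosen after the data were seen. A ratio to *Cdh5* also moves with the level of *Cdh5* itself. On the lymphatic scale above, *Tie1* was higher in only 1 of 3 experiments. The ratio of *Tie1* to *Cdh5* was 0.301, 0.285 and 0.368 in AAV-CTRL, against 0.503, 0.366 and 0.436 in AAV-VEGF-C. It was higher in all 3 experiments, by 0.45 ± 0.15 in the mean log2 ratio (SE, n = 3; exact sign-flip p = 0.25), but AAV-VEGF-C 2 lay within the AAV-CTRL range (exact permutation p = 0.2). *Angpt2* to *Cdh5* was also higher in 3 of 3 experiments (log2 difference 0.56, exact permutation p = 0.4). *Tek* to *Cdh5* ranged from 0.0488 to 0.364 in AAV-CTRL and from 0.0620 to 0.211 in AAV-VEGF-C, so *Tek* varied relative to a general endothelial gene as well.

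Other genes of the pathway were taken from a list of 34 chosen by role, and all 34 were tested. Of these, 1 gene passed as higher and 1 as lower with VEGF-C, against 10.5% higher and 0.659% lower over all genes tested. Negative fitted values were found for 25 of the 34, with a median of -0.44, beside 5495 of 7234 and -0.41 for genes averaging 5 TPM or more. Over all genes tested these values were 8768 of 17459 and -0.0037. Of the 34, 27 averaged 5 TPM or more. The gene that fell was *Itgb1*, the integrin subunit that partners Tie2 in matrix and ligand signalling. It had 56.3, 64.7 and 117 TPM in AAV-CTRL and 9.81, 18.1 and 23.3 TPM in AAV-VEGF-C, with no overlap in scaled CPM either (log2 fold change -1.10 ± 0.26, SE; edgeR adjusted p = 0.0358). It is also widely expressed outside endothelium, and the call was lost in each of the 6 fits with 1 library left out. The gene that rose was *Grb7*, an adaptor that binds phosphorylated Tie2, at 0.201, 0.342 and 0.209 TPM in AAV-CTRL and 0.764, 0.628 and 2.15 TPM in AAV-VEGF-C (log2 fold change 3.42 ± 0.74, SE; edgeR adjusted p = 0.0276). Only 4 to 6 counts per AAV-CTRL library and 5, 6 and 23 counts in AAV-VEGF-C stand behind it, and the background genes were higher in the same libraries. The part of that background in the value of *Grb7* was not tested. Its call held without AAV-CTRL 1 and was lost when any of the other libraries was left out.

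By role, 4 of 6 receptor complex partners, 10 of 14 adaptors and kinases and 5 of 5 transcription factors had negative values. So had 2 of 2 sheddases and 3 of 6 angiopoietin-like genes. These shares are to be read against the same 5495 of 7234 and, over all genes tested, 8768 of 17459. The most abundant gene of each other role did not pass. *Klf2*, a flow-responsive factor, averaged 107 TPM and had a log2 fold change of -0.43 (edgeR adjusted p = 0.390). *Akt1*, the kinase downstream of Tie2, averaged 29.6 TPM at -0.28 (edgeR adjusted p = 0.544). Of the proteases, *Mmp14* averaged 44.7 TPM at -0.81 (edgeR adjusted p = 0.186), and *Angptl4*, a lipase inhibitor related to the angiopoietins, averaged 11.7 TPM at -0.26 (edgeR adjusted p = 0.759). *Esm1*, a target of FOXO1, the factor that Tie2 signalling holds inactive, had 9.23, 7.53 and 18.1 TPM in AAV-CTRL and 1.30, 3.18 and 4.19 TPM in AAV-VEGF-C (log2 fold change -0.99 ± 0.33, SE; edgeR adjusted p = 0.0968). *Foxo1* itself, named after its values were seen, had a log2 fold change of -0.86 (edgeR adjusted p = 0.110). *Esm1* and *Foxo1* were lower in scaled CPM without overlap, as were 17.6% of all tested genes, and neither passed.

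The genes whose scaled log2 CPM was most like a member's over the 6 libraries were sought among genes averaging 5 TPM or more, for members with at least 10 counts in every library, and are given here for 3 of them. *Ptprb* was nearest to *Podxl* (Pearson r = 0.995) and *Bcam* (0.994), which encode a sialomucin and a laminin receptor of the cell surface, and to C130074G19Rik (0.990). *Angpt2* was nearest to *Ubtf* (0.996), *Phlda1* (0.995) and *Fscn1* (0.985), and *Svep1* to 2700081O15Rik, *Foxd1* (both 0.991) and *Arhgef18* (0.989). These values describe 6 libraries that share depth and experiment, and the highest of 7233 or more correlations over 6 points are high by selection.

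**Figure D5:**
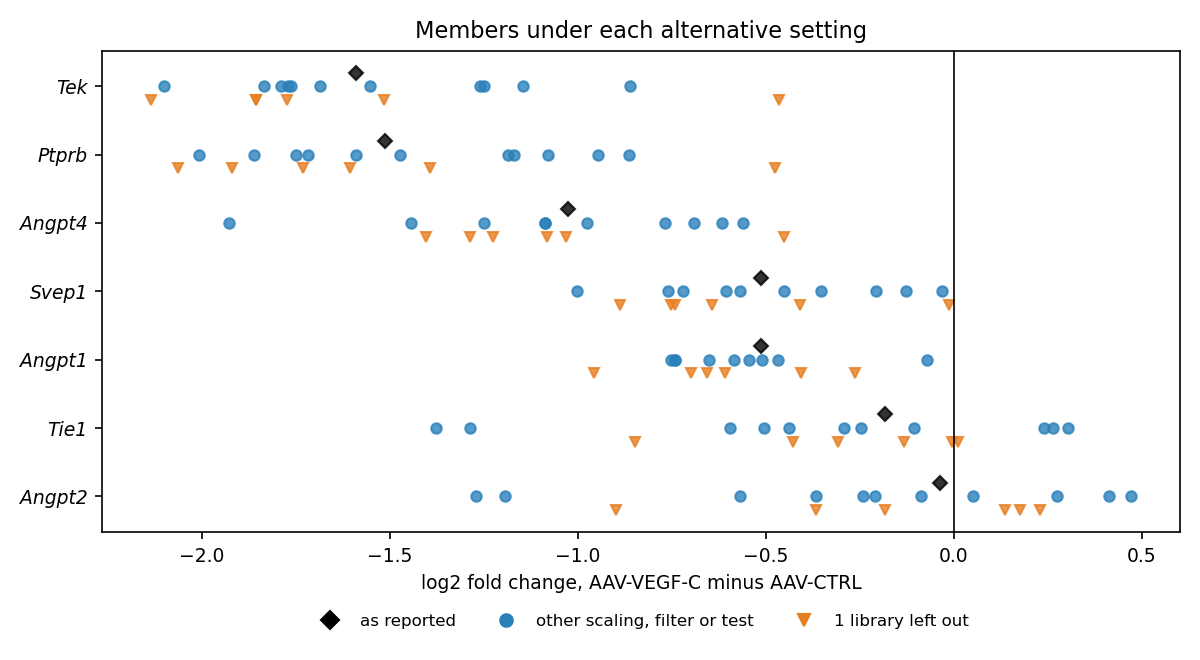
Log2 fold change of each member (horizontal axis) as reported (diamonds), under another scaling, filter or test (circles) and with 1 library left out (triangles). *Tek*, *Ptprb*, *Angpt4*, *Angpt1* and *Svep1* stay below 0 under every setting drawn, while *Angpt2* and *Tie1* lie on both sides of 0.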

How the data were processed

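Sorted dural LECs gave 3 AAV-CTRL and 3 AAV-VEGF-C libraries, with groups and experiment numbers from the labels, made by a stranded low-input kit for total RNA. Estimated counts, unscaled (8.72% of values not whole), and TPM were deposited by the authors. The submitters' processing notes name FastQC, Trimmomatic, DRAGEN, Picard and the build mm10. Whether strand or molecular identifiers entered the counting is not given in the sources used here. Of 55401 gene identifiers, 98.1% equal those of GENCODE M21 with their version.

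Counts were rounded, kept by filterByExpr, scaled with TMM and tested between the groups with the edgeR quasi-likelihood test (version 4.0.16, R 4.3.3), with Benjamini-Hochberg adjustment over all genes at 0.05. Alternatives were DESeq2 (version 1.42.0), which the study used, limma (version 3.58.1) on log2(TPM + 1) and log2(TPM + 0.1), voom with sample weights, other scalings and filters, the replicate block, counts drawn down to the smallest total and each library left out. The edgeR fit, DESeq2, voom, limma on log2(TPM + 1), the replicate block and some scalings and filters were run on simulated data. The remaining settings, the permutation tests and the sign-flip test were not, and the outcome of the simulation is not given here. Two-sided exact permutation tests served for single values. Members and lists were chosen with earlier results of these data known. Genes were named if they were members, passed the test within the 34 genes or had the highest mean TPM of their role. Scales on *Cdh5* and on marker sums, and the sign-flip test over 3 pairs, were added after the data were seen. Background genes had symbols beginning Olfr, Vmn1r, Vmn2r, Tas2r, Krtap, Defa or Defb.

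The labels tie each replicate number to 1 experiment. Across genes, same-numbered libraries deviated together from their groups (r = 0.37, 0.28 and 0.15), though genes are not replicates. Pairs with unlike numbers ran from -0.40 to 0.22, and AAV-CTRL 3 with AAV-VEGF-C 2 (0.22) exceeded pair 3 (0.15). The pairing of the libraries therefore rests on the labels. No libraries of a group were alike within sampling noise (lowest chi-square per degree of freedom 8.78). P-values of the fits by group and of the permutation tests measure the spread between libraries within groups, experiment differences included. Those of the replicate block and of the sign-flip test measure the spread of differences within experiments. All rest on 3 experiments of pooled animals. The genes most like *Tie1* are not reported here.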

Additional observations from a re-analysis of the deposited data

How the results depend on the processing

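Of 115 values of the 7 members under other settings, 101 kept their sign and their side of the threshold. The number of members passing as lower rose from 0 to 2 with no filter on low counts (*Tek* -1.83, adjusted p = 0.0010; *Ptprb* -1.75, adjusted p = 0.0025; edgeR) and was 0 to 1 with 1 library left out, the 1 being *Tek* without AAV-CTRL 1. *Angpt2* reversed to 0.0504 (DESeq2 size factors), 0.47 (2000 most abundant genes, a scaling that moved the median of all genes to 0.45), 0.41 (mean of at least 5 TPM) and 0.27 (drawn down), and spanned -0.90 to 0.23 with 1 library left out. *Tie1* reversed to 0.30, 0.24 and 0.26 under the last 3 of these, and spanned -0.85 to 0.0113. With limma on TPM, which keeps the general shift down, the values were -1.19 and -1.27 for *Angpt2* and -1.29 and -1.38 for *Tie1* (pseudocounts 1 and 0.1; adjusted p from 0.118 to 0.131). The ratio of *Angpt2* to *Angpt1* reversed to 0.28 with counts in place of TPM. The cause was not tested.

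With the replicate block no member changed its call, and the fitted values ran from -1.25 (*Tek*) to -0.21 (*Angpt2*). In the list of 34, the 1 higher call (*Grb7*) became 0 with a mean of at least 5 TPM, under both limma settings, drawn down and in 5 of the 6 fits with 1 library left out (0 to 1). The 1 lower call (*Itgb1*) became 0 with library totals alone, the 2000 most abundant genes, a mean of at least 5 TPM, drawn down and in all 6 fits with 1 library left out (0 to 0), 6 with no filter, 3 with DESeq2, and 2 with voom and with the replicate block.

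Of all genes tested, 1835 passed higher, against 9382 with no filter, 9 with a mean of at least 5 TPM, 5669 with DESeq2, 1112 with limma on log2(TPM + 1), 17 drawn down and 0 to 1771 with 1 library left out. Lower were 115, against 53 with library totals alone, 8 with the 2000 most abundant genes, 1175 with no filter, 0 with a mean of at least 5 TPM (338 with an unadjusted p under 0.05 in edgeR), 504 with DESeq2, 434 with limma on log2(TPM + 1), 267 with voom, 362 with the replicate block, 0 drawn down (250 unadjusted) and 0 to 48 with 1 library left out. Without AAV-CTRL 2 or 3, edgeR made 0 calls, against 3604 and 3641 higher and 1467 and 986 lower at an unadjusted p under 0.05.

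*Angpt1*, *Angpt4* and *Svep1* did not reach a mean of 5 TPM, and *Angpt1* was not testable drawn down. Depth limits the AAV-VEGF-C values of these 3 genes and of *Tek* most.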
